A study of Homo sapiens with 8 samples.

Results

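CCSER1 (ENSG00000184305.16) is a very long gene that encodes a coiled-coil, serine-rich protein and lies in a common fragile site. It spans chr4:90127394-91605295 on the plus strand (hg38, GENCODE release 44), a length of 1.48 Mb. Every H3K27ac peak called in the gene body or within 100 kb of either end was collected. These were 11 of the 588343 peaks in the 6 lists examined, and they merged into 3 of 143679 intervals. The gene was chosen by measured values of these libraries, since an interval within it had one of the greatest falls in fold rank in CREBBP-KO cells. The difference between genotypes at that interval is therefore given as a description, with no p-value, and no support is taken from its call in the fit over all intervals.

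H3K27ac was profiled by ChIP-seq in 3 WT and 3 CREBBP-KO libraries of HCECs (HCEC-1CT), human colonic epithelial cells immortalized with CDK4 and hTERT. Both genotypes derived from a clone carrying doxycycline-inducible Cas9, and the knockout was made with a synthetic guide RNA against CREBBP (CBP KO in the sample labels). The study's methods describe the KO cells of this experiment as monoclonal and elsewhere describe pools of clones, so differences between clones and the loss of CREBBP cannot be told apart. Each library gave a list of 86163 to 111697 peaks, with more in each CREBBP-KO list than in each WT list, and depth is unknown because the lists hold no read counts. Among 12 genes that mark colonic epithelium, the promoters of EPCAM, KRT8 and MUC2 had a peak in all 6 libraries, KRT18 in 5, and 8 in none, CDH1, CDX2, VIL1 and KRT20 among them. Among 10 markers of other cell types, COL1A1, COL1A2, DCN, VIM and ZEB1, all used as fibroblast or mesenchymal markers, had a promoter peak in all 6 libraries the endothelial gene PECAM1 in 3, and the leukocyte genes PTPRC, CD3E and CD79A and the endothelial gene CDH5 in none.

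Acetylation of lysine 27 of histone H3 marks active promoters and enhancers. It is deposited mainly by the paralogous acetyltransferases CREBBP and EP300, which are brought to enhancers by transcription factors. An active gene usually carries the mark at its start, whereas an intronic enhancer carries it away from the start and may act on its host gene or on another gene. From peak positions alone the target of an intronic site cannot be known.

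The 3 intervals lay in intron 3 of the full-length transcript ENST00000509176.6, which runs from 90313048 to 90400035, and overlapped no annotated exon. The first, called interval A, spanned 90315018 to 90320715 (5698 bp), began 1971 bp past the preceding exon and had a peak in all 6 libraries. Interval B spanned 90328642 to 90329102 (461 bp) and had a peak in WT 2 alone. Interval C spanned 90357369 to 90358034 (666 bp) and had a peak in WT 1 and WT 2. The reference sequence of 300 bases around the highest summit of A and of C is shown because these are the sites of acetylated chromatin seen in more than 1 library of the gene. Capitals mark matches on either strand to 5 searched motifs, AP-1 (TGANTCA), the cAMP response element (TGACGTCA), TEAD (GGAATG), forkhead (TGTTTAC) and RUNX (TGTGGT).
Interval A, chr4:90317957-90318256, plus strand: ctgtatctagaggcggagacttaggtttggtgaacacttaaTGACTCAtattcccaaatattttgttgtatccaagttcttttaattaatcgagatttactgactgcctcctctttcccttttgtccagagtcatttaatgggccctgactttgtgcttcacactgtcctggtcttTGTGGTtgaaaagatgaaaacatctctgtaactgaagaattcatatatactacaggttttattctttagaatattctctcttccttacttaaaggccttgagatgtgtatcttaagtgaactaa
Interval C, chr4:90357376-90357675, plus strand: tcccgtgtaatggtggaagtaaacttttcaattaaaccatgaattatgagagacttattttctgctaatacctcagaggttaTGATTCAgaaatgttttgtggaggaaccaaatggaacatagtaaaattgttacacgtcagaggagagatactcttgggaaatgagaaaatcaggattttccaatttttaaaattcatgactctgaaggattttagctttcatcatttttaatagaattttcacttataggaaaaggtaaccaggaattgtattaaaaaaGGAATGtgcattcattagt

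The window of A held 1 AP-1 match, TGACTCA, starting at base −109 from the summit, and 1 RUNX match starting at base 26. The window of C held 1 AP-1 match, TGATTCA, starting at base −68 from its summit, and 1 TEAD match starting at base 131, whereas that of B held 1 RUNX match. The matches did not overlap each other. An AP-1 match stood in 8.81% of equal windows over all 34847 tested intervals and in 11.4% of those over the 23277 away from promoters, a RUNX match in 16.7% and 20.2%, and a TEAD match in 14.6% and 16.4%. No window of the 3 held the cAMP response element or the forkhead letters, which occurred in 0.215% and 4.35% of tested windows. Across the whole of A there were 6 AP-1 matches, or 1.05 per kb, against a median of 0.488 per kb in the tested intervals away from promoters, and 12.1% of those had a higher density. The GC content of the window was 36.3% for A, 42.0% for B and 31.7% for C, below the medians of 44% away from promoters and 65.7% at promoters. A match is a property of the reference letters and does not show that a factor was bound.

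The start of CCSER1 carried no H3K27ac peak in any library. None of the 6 lists had a peak within 1 kb or within 2 kb of the 5 protein-coding starts, nor of all 14 annotated starts. The nearest of the 14, a start without a coding sequence, lay 2005 bp from interval A, just outside the wider window. The first RefSeq promoter of the gene (GRCh38.p14, 250 bases before to 50 after the start) is shown with its CpG dinucleotides in capitals, because the letters are those of a CpG-rich promoter where no peak was called. The second, at the start of the shorter transcript, follows it.
First promoter, chr4:90127144-90127443, plus strand: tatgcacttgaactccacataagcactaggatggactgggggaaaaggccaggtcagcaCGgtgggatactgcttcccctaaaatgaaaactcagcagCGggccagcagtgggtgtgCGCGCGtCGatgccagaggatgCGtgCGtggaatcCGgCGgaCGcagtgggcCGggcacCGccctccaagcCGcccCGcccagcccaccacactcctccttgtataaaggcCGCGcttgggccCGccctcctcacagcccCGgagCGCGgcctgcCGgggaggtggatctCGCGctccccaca
Second promoter, chr4:90234781-90235080, plus strand: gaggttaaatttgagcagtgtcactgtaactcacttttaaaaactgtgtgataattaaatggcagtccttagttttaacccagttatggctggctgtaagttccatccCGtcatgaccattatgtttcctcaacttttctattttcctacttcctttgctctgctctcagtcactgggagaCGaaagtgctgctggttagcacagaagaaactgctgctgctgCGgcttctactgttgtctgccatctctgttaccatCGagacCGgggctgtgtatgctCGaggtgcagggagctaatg

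The first promoter had a GC content of 65.7% and 24 CpGs, and 33.9% of the 35116 RefSeq promoters of this length had as many or more. The second had a GC content of 45.7% and 6 CpGs, and 66.3% of promoters had as many or more. Among 19689 protein-coding genes, 12147 (61.7%) had a promoter peak in all 6 libraries and 6350 (32.3%) had one in none. CCSER1 belonged to the second class in WT and CREBBP-KO cells alike. A comparison of promoter height with intronic height was consequently not possible, and the height of the start can be stated only as below the calling threshold of each list, a q-value of about 0.05.

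The intronic sites were confined to a short stretch of the gene in these 6 lists. From the start to A there were 187.6 kb with no peak, the 3 intervals together spanned 43.0 kb (2.91% of the gene), and from the end of C to the end of the gene there were 1247 kb with none. The other 9 introns of this transcript, among them the longest at 512577 bp, had no interval, and neither did the 100 kb on either side. The summit of A stood 190.7 kb from the gene start. The nearest annotated start was that of ENST00000508086.1, a retained-intron transcript without a coding sequence, 2005 bp from the edge of A and 5.09 kb from its summit, and the nearest protein-coding start, that of ENST00000432775.6, was 79987 bp from the edge.

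**Figure D1:**
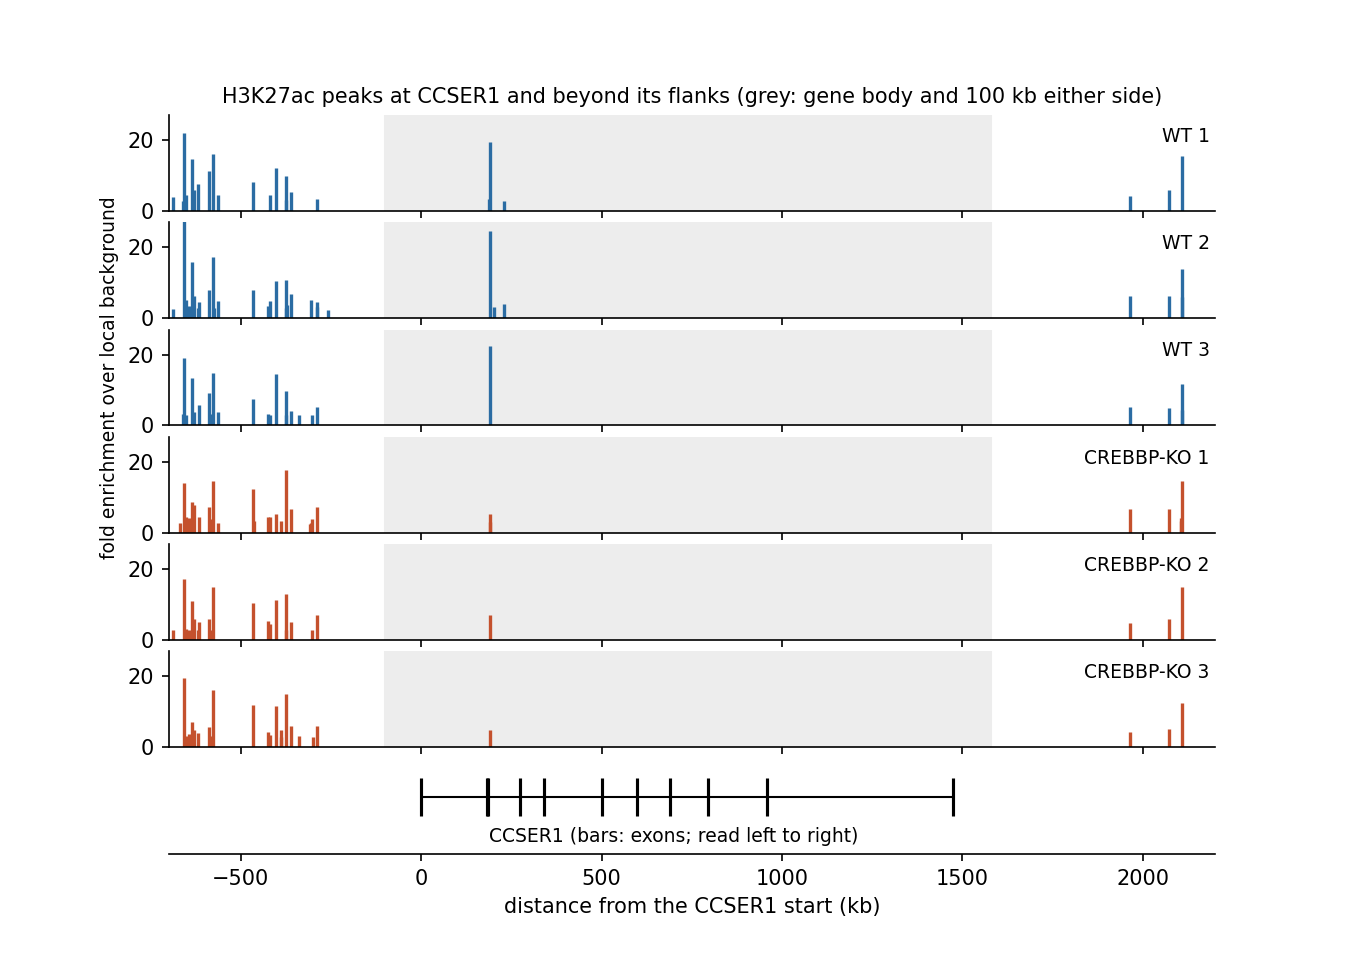
Fold enrichment (bar height) of each H3K27ac peak in 3 WT (blue) and 3 CREBBP-KO (orange) libraries against distance in kb from the CCSER1 start, with the exons of the full-length transcript at the bottom. Within the grey region the tall bar at 190.7 kb is interval A, and no bar stands at the gene start or in the 1247 kb after the last interval.

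At interval A the fold over local background, the height the peak caller gives, was 19.5, 24.4 and 22.4 in WT libraries 1 to 3 and 5.14, 6.90 and 4.80 in CREBBP-KO libraries 1 to 3. The 3 CREBBP-KO values lay below the 3 WT values with no overlap. The WT mean was 22.1 ± 2.46 (SD, n = 3) and the CREBBP-KO mean was 5.62 ± 1.12 (SD, n = 3), so that the WT fold was 3.94 times that of the knockout. The difference between the means was 16.5. Folds were lower in all 3 CREBBP-KO than in all 3 WT libraries at 16.5% of tested intervals. As A was chosen for its difference between genotypes, nothing is read from that share, from the lack of overlap or from the SDs. The lists hold neither reads nor input, so the DNA copy number of this fragile-site locus was not examined here in either genotype. No correction of the fold for it was made here. The paper describes HCECs as karyotypically normal, a description that names neither the CREBBP-KO cells nor this locus.

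Because the lists differ in length, the rank within each list is a second measure of height. The percentile of A, the share of a list's peaks with a fold no higher, was 97.5, 99.4 and 98.8 in the WT lists and 64.8, 73.9 and 58.7 in the CREBBP-KO lists. In counts, 2350, 551 and 1065 peaks of the WT lists stood higher than A, against 39382, 27382 and 40982 of the CREBBP-KO lists. The site thus moved from the top 3% of WT peaks, 2.51% being the greatest share above it, to the upper middle of the CREBBP-KO lists, at 98.6 ± 0.978 (SD, n = 3) and 65.8 ± 7.68 (SD, n = 3). The deposited −log10 p was 80.9, 117.0 and 93.5 in WT and 14.3, 20.9 and 13.4 in CREBBP-KO libraries. Every CREBBP-KO library still had a called peak at A.

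**Figure D2:**
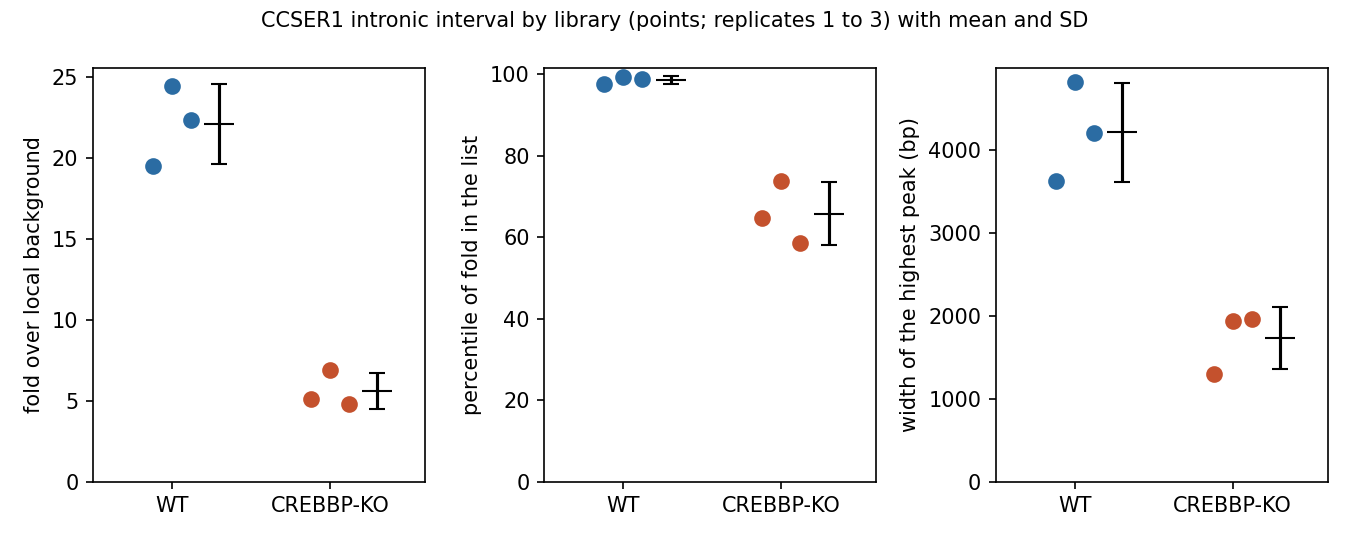
Fold over local background, percentile of that fold in its list and width in bp of the highest peak of interval A, for 3 WT and 3 CREBBP-KO libraries (points, with mean and SD in black). In each panel the 3 CREBBP-KO points lie below the 3 WT points, with mean folds of 5.62 and 22.1.

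The position of A did not move while its breadth did. The highest point of the peak fell within 93 bp in the 6 libraries, between 90318102 and 90318195, so all 6 summits lie inside the sequence window shown above. The highest peak was 3625, 4817 and 4202 bp wide in WT and 1301, 1939 and 1960 bp wide in CREBBP-KO libraries. Peaks of the CREBBP-KO libraries covered nothing outside 90317046 to 90319132, a stretch of 2087 bp or 36.6% of the interval. The 2028 bp to its left and the 1583 bp to its right were covered in WT libraries only. Of these, WT 2 alone covered the whole left part and WT 1 alone the whole right part. Of the 6 AP-1 matches, 4 lay in the stretch that CREBBP-KO peaks covered, and 1 lay on either side of it. A lower peak also crosses the calling threshold over a shorter stretch, so width and height are not independent measures.

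**Figure D3:**
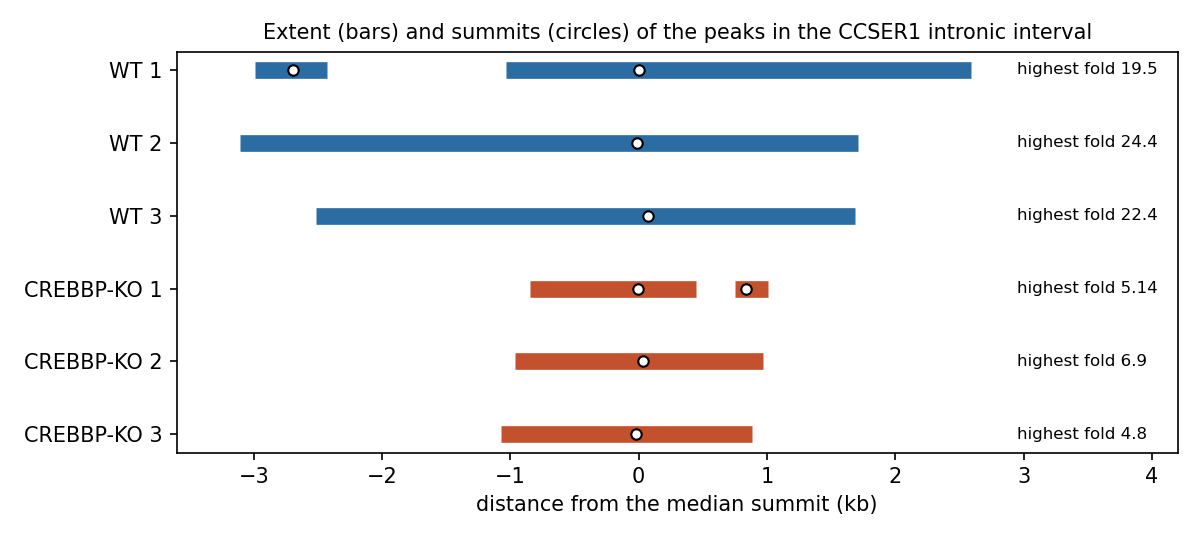
Extent (bars) and summits (circles) of every peak in interval A, by library, against distance in kb from the median summit. The 6 main summits line up within 93 bp, and the 3 CREBBP-KO libraries cover the central 2087 bp or less, whereas each WT library reaches further to at least 1 side.

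Among all tested intervals A stood far from the diagonal. The mean WT fold of A was exceeded by 3.06% of the 34847 intervals, and among the 23277 away from promoters it was the 507th highest, where the median was 7.93. In CREBBP-KO libraries 10.5% of tested intervals had a lower mean fold. The ratio of CREBBP-KO to WT mean fold was 0.254 at A, the lowest of all tested intervals, beside a median of 1.10 and a range from the 5th to the 95th percentile of 0.639 to 1.76. On the scale of normal scores of ranks within each library, the values were 1.499, 2.15 and 1.88 in WT and −1.39, −0.63 and −1.63 in CREBBP-KO libraries. The shift of −3.06 (SE 0.23) was the 3rd lowest of all, where the median shift was 0.02. KO 3 had a fold under the minimum of 5, so A entered the fit through its WT values. Of all tested intervals, 18.7% were called lower and 18.6% higher, and that A was among the former follows from the choice of the gene. For the same reason nothing is read from the ranks of A or from the SE of its shift.

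**Figure D4:**
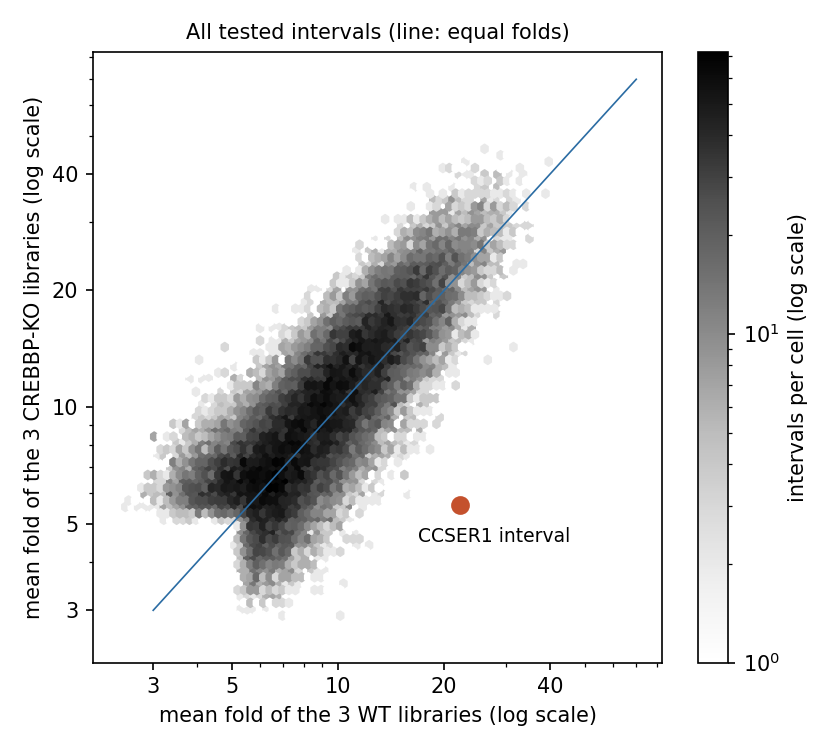
Mean fold of the 3 CREBBP-KO libraries against that of the 3 WT libraries (both axes logarithmic) for 34847 tested intervals, shaded by their number, with the line of equal folds. Interval A (orange) lies below the cloud at 22.1 in WT and 5.62 in CREBBP-KO cells; the notch at low folds comes from the minimum of 5.

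Intervals B and C were low wherever they were called. The fold of B was 3.22 in WT 2, at percentile 26.5 of that list. The fold of C was 2.93 in WT 1 and 4.11 in WT 2, at percentiles 17.0 and 46.9. Neither had a peak in WT 3 or in any CREBBP-KO library, and with presence in 1 or 2 libraries of a genotype they do not separate the genotypes. Over the whole region there were 3, 3 and 1 peaks in WT libraries 1 to 3, against 2, 1 and 1 after loss of CREBBP, so the numbers overlap. The covered length was 4644, 5944 and 4202 bp in WT and 1560, 1939 and 1960 bp in CREBBP-KO libraries, most of it from A, and was therefore not tested.

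Interval A had no near neighbour among intervals with a peak in all 6 libraries. Intervals B and C, called in 1 and 2 libraries, lay nearer, in the same intron. The nearest interval with a peak in all 6 libraries lay 476.4 kb upstream, and the nearest downstream lay 1770 kb away, a stretch of 2.25 Mb in all. The distance from such an interval to its nearest neighbour had a median of 6.13 kb over 52167 intervals, and 50 of them (0.0958%) were as far from their neighbour as A. Of the 1067 tested intervals with a mean WT fold at least that of A, 1 was as isolated, which was A itself. Both limits are A's own values, and its WT fold bears on the choice of the gene, so nothing is read from this count. The median distance of the 1067 was 4.42 kb. Beyond the flanks of the gene, the first upstream peak was called in 1 library at a fold of 2.30, 158.3 kb from the edge of the region, and the first downstream peak was called in 6 libraries at folds of 4.25 to 6.64, 385.6 kb from the edge.

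**Figure D5:**
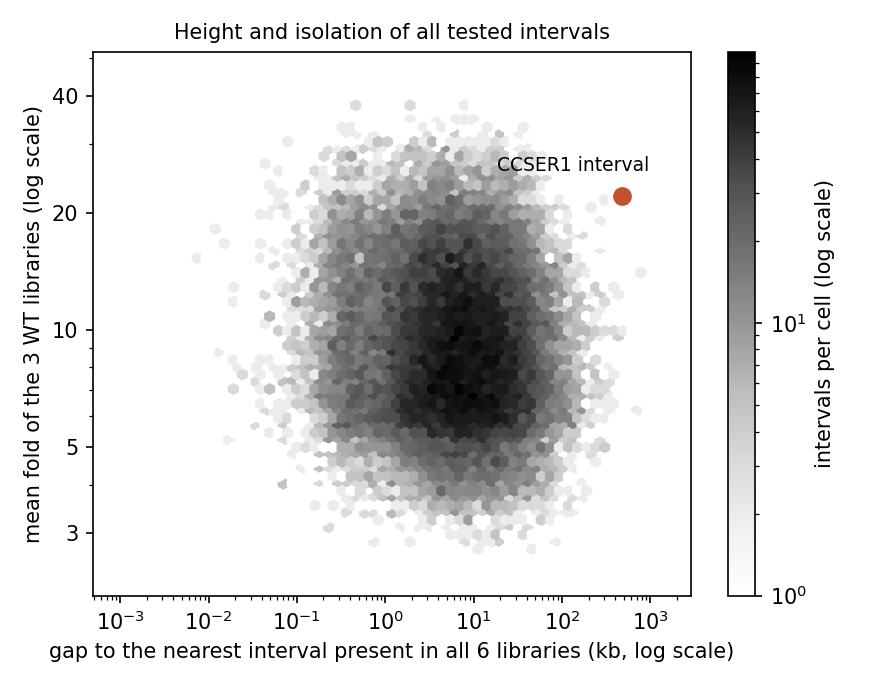
Mean fold of the 3 WT libraries against the gap in kb to the nearest interval with a peak in all 6 libraries (both axes logarithmic) for the tested intervals, shaded by their number. Interval A (orange), with a gap of 476.4 kb and a fold of 22.1, lies at the upper right edge of the cloud.

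The next 2 tested intervals downstream of A, which the choice of the gene did not use, did not pass the threshold. The one at 92198100 to 92199669, outside any protein-coding gene, had a fold of 5.86, 6.398 and 4.89 in WT and 6.64, 5.90 and 5.04 in CREBBP-KO libraries, and the values of the genotypes overlap. It shifted by −0.05 in normal score (SE 0.30, adjusted p = 0.907, limma), and the one at 92231142 to 92237434 shifted by −0.16 (SE 0.18, adjusted p = 0.51, limma).

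Over 5 Mb on either side there were 103 other tested intervals, with a median shift of −0.06 and a range of −2.16 to 1.51, none as low as A. Of these, 28 were called lower (27.2%) and 14 higher (13.6%), beside 26.8% lower over the 1870 tested intervals of chromosome 4, 23.6% over all tested intervals away from promoters and 18.7% over all. The share of falls near CCSER1 was thus close to that of its chromosome. Of the 40 protein-coding genes within that distance, 26 had a promoter peak in all 6 libraries and 11 in none. Neighbours without one included MMRN1, a secreted platelet and endothelial protein gene.

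CCSER2 (ENSG00000107771.17), the paralogue of CCSER1 on chromosome 10, had a different layout. In a gene body of 0.19 Mb it held 38 merged intervals, 8 of them with a peak in all 6 libraries and 6 tested. The interval at its gene start, from 84327190 to 84332097, had a fold of 9.46, 10.3 and 11.6 in WT and 13.1, 15.8 and 17.7 in CREBBP-KO libraries, and rose by 0.53 in normal score (SE 0.18, adjusted p = 0.0238, limma), a call lost without WT 1, KO 2 or KO 3, where the adjusted p was 0.0942, 0.0688 and 0.124. The 5 other tested intervals shifted by −0.47 to 0.45 and did not pass the threshold, and without WT 3 the one at −0.47 was called lower (adjusted p = 0.0495, limma). The paralogues thus differed at the start, where CCSER1 had no peak in any library and CCSER2 had one in all 6.

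Very long genes served as a second comparison. Of 71 protein-coding genes of at least 1 Mb, CCSER1 included, 31 had a promoter peak in all 6 libraries and 34 in none, 54 contained a tested interval and 8 contained exactly 1. CCSER1 had 0.677 intervals per Mb with a peak in all 6 libraries, against a median of 4.92, and the 16 genes with fewer had none. By the mean WT fold of its highest tested interval, however, it was 10th of the 54 with a tested interval. That interval is A, whose WT fold bears on the choice of the gene, so nothing is read from this rank. Leaving out A, the tested intervals of these genes numbered 444, of which 157 were called lower (35.4%) and 39 higher (8.78%). In 12 long genes of common fragile sites, FHIT and WWOX among them, 31 of 73 tested intervals were called lower (42.5%) and 3 higher (4.11%), and 9 of the 12 had a promoter peak in all 6 libraries. Of these 12, all but IMMP2L (0.90 Mb) were also among the genes of at least 1 Mb, so the shares of falls in the groups are not independent. Both shares stood above the 18.7% of all tested intervals and the 23.6% away from promoters, a difference given as a description and not tested.

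Genes with no promoter peak called served as a further comparison. There were 567 protein-coding genes with no promoter peak in any library and a tested interval inside the gene body away from promoters. CCSER1 was 15th among them by mean WT fold, where the median was 8.71. As A was chosen for its fall from WT values, a high WT fold goes with that choice, and nothing is read from this rank. Among 2680 protein-coding genes with 3 or more tested intervals, those with mean normal scores over the 6 libraries nearest to CCSER1 were TOX, a transcription regulator of T cell development, at a Euclidean distance of 2.52 over 7 intervals, CCDC102B at 2.54 over 4 and CDH9, a cadherin, at 2.60 over 5, beside a median distance of 4.03. The gene means of TOX were 0.74, 1.02 and 0.64 in WT and −0.27, −0.32 and −0.34 in CREBBP-KO libraries, a smaller difference than at CCSER1, which rests on 1 interval. That interval is A, for which the gene was chosen, and CCSER1 itself falls short of the minimum of 3. Nothing is therefore read from these distances or from the difference to TOX.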

How the data were processed

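The data comprised 6 H3K27ac ChIP-seq libraries of HCECs, 3 per genotype, grouped by their sample titles. The input libraries were not analysed here. The authors aligned reads to hg38 with the nf-core ChIP-seq pipeline (the submitters' processing notes name BWA) and called narrow peaks with MACS2, giving 1 deposited list per library. The authors also downsampled reads, and whether the lists precede this step is not given in the sources used here. Per the deposited lists, a peak's fold is a ratio over local background on a linear scale, and the deposited significance is −log10 p and −log10 q. The lists hold no reads, so no counting interval was computed.

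On chromosomes 1 to 22, X and Y, overlapping or adjoining peaks of the 6 lists were joined into intervals, and other contigs were left out. Intervals with a peak in all 6 lists and a fold of at least 5 in all 3 libraries of a genotype were tested (called tested intervals). The highest fold per interval and library was ranked, turned into normal scores and fitted with limma (a trend, CREBBP-KO minus WT) and adjusted by Benjamini-Hochberg over all tested intervals at a threshold of 0.05. Promoters were windows of 1 kb around protein-coding starts of GENCODE release 44. Each list's furthest peak lay within its chromosome, and the merging and the fit were tested on simulated data. The members, gene lists and tests were chosen with earlier results of these data known. The text names the tested intervals of CCSER1, the 2 tested intervals downstream, CCSER2, promoters within 5 Mb, 12 long genes of fragile sites, and the 3 genes of most similar mean score. Other items that the rule covers are not reported here. An exact permutation test of 3 libraries against 3 cannot go below p = 0.1, and none was used, since the region's totals rest on the chosen interval. As the KO libraries may come from 1 clone, p-values measure the spread between these libraries. Python 3.11.15, numpy 2.4.6, pandas 2.3.3, R 4.3.3 and limma 3.58.1 were used.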

Additional observations from a re-analysis of the deposited data

How the results depend on the processing

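In all 14 alternative fits interval A was called lower and no CCSER1 interval higher. As A was chosen for its fall, these calls follow from that choice and are no sign of stability. In the main fit A entered through its WT values. Its CREBBP-KO folds also passed with a minimum of 3 or without KO 3, and with no fold filter none was needed. Its shift of −3.06 moved by more than the SD between replicates when intervals were ranked by −log10 p (−2.22), when no fold filter was applied (−2.35), and when the minimum fold was 3 (−2.39). With quantile-normalized log2 folds in place of ranks it was −2.15 in log2 units, which cannot be set against a shift in normal scores. It was −2.73 after trends on GC content and length were removed, −3.06 without a variance trend, −3.06 with summit windows, and −3.35 to −2.83 when 1 library at a time was left out. With the replicate number as a block it was −3.06. Deviations of same-numbered libraries correlated at 0.011 to 0.028, and those of differently numbered ones at −0.025 to 0.012. With 3 libraries per genotype these values cannot show whether the numbers pair the samples, and the main fit used no pairing.

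The difference in peaks per library in the region (CREBBP-KO minus WT, −1) ranged from −1.33 to −0.333 over other thresholds, list lengths and the gene body alone, and from −1.67 to −0.667 with each library left out. That in covered length (−3110 bp) ranged from −3197 to −2703 bp and from −3474 to −2603 bp. With no peak at the promoter, neither the comparison of promoter with intron nor a promoter shift gave a value under any alternative, a window of 2 kb included. The lists show only peaks past the calling threshold, so a weaker signal at the start or elsewhere in the gene was not detectable.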
